A study of Mus musculus with 6 samples.

Results

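Mouse genes whose symbols are Zfp followed by a number, most of which encode C2H2 zinc finger proteins, were examined on chromosomes 7, 13 and 17. RefSeq lists 176 such protein-coding genes there (93 on chromosome 7, 37 on chromosome 13 and 46 on chromosome 17), of 21883 protein-coding genes on the autosomes and sex chromosomes of GRCm38. A gene was called clustered when another of these genes lay within 200 kb, which held for 145 genes, and isolated otherwise, which held for 31 genes. The symbol chooses by name and not by protein: Zfp36 and Zfp36l2 encode CCCH-type proteins that bind RNA.

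The mark was histone H3 acetylated at lysine 27 (H3K27ac), found at active promoters and enhancers. It was profiled by CUT&RUN, in which an antibody brings a nuclease to the mark and the released DNA is sequenced. The libraries came from hematopoietic stem cells of the bone marrow, 3 libraries from Ppp2ca-deficient mice (KO) and 3 from mice wild type for Ppp2ca (WT). The series text gives 3 mice for each genotype. Ppp2ca encodes a catalytic subunit of protein phosphatase 2A. The sources used here do not give age, strain, the part of Ppp2ca deleted or what drove the deletion, and no label ties a library to an animal. Lists of peaks of a histone mark do not check the deletion itself.

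C2H2 zinc finger proteins bind DNA through arrays of fingers, each reading a few bases. Many in the mouse also carry a KRAB domain, which recruits the corepressor KAP1 (Trim28) and with it enzymes that lay down repressive H3K9 methylation, mainly on transposable elements. Genes of this kind arose by repeated tandem duplication, so they lie in long runs of related copies with similar promoters. Here a run was defined by distance alone, as neighbours linked within 200 kb, and the 145 clustered genes formed 23 runs.

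The promoters of 4 of the genes show the range of sequence behind the peaks. Zfp780b, in a run on chromosome 7, had the strongest peaks of the genes marked in KO libraries alone. Zfp944 belongs to a head-to-head pair on chromosome 17, marked in every library. Zfp143 is isolated and encodes an activator of transcription. Zfp235 lies in a run on chromosome 7 and had no peak at either gene end in any library. Each sequence below runs 5′ to 3′ along the gene over 250 bases before and 50 bases after the RefSeq start (GRCm38.p6). The positions are chr7:27979108-27979407 on the minus strand for Zfp780b, chr17:22361351-22361650 on the minus strand for Zfp944, chr7:110061452-110061751 on the plus strand for Zfp143 and chr7:24132122-24132421 on the plus strand for Zfp235. Capitals mark matches to a word that the Zfp143 protein recognises (ACTACA, any 2 bases, then TCCC) and to CCGGAAGT, a word of ETS family factors, on either strand.
Zfp780b: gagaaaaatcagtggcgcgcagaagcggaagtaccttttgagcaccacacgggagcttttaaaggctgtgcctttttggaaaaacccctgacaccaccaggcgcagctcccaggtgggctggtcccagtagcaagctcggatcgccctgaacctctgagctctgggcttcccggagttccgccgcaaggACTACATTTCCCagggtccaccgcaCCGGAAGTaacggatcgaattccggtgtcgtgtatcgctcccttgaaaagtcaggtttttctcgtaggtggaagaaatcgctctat
Zfp944: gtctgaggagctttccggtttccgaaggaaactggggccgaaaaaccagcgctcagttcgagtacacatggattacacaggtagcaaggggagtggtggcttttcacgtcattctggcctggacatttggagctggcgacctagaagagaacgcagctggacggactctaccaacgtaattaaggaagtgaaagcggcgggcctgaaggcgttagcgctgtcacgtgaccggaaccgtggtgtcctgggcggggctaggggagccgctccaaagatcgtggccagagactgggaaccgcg
Zfp143: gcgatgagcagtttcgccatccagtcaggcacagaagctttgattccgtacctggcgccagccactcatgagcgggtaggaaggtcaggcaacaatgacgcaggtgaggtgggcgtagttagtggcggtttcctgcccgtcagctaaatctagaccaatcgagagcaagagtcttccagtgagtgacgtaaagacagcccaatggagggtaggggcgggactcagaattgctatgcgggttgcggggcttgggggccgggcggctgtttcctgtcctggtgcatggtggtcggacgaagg
Zfp235: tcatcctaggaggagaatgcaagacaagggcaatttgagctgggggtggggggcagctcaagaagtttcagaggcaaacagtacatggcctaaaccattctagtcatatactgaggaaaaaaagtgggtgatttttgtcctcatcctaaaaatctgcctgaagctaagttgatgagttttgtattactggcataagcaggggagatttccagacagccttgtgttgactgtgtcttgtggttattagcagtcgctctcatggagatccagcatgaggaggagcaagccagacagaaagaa
The Zfp780b promoter held both words, Zfp944 and Zfp235 held neither, and Zfp143 does not carry the word that its own protein reads. The promoters differed widely in CpG dinucleotides, with 19 in Zfp780b, 22 in Zfp944, 18 in Zfp143 and 1 in Zfp235. A match is a description of the letters and not evidence of binding.

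Each library came with its own list of peaks. The KO lists held 50453, 34016 and 35629 peaks for replicates 1 to 3, against 22066, 29945 and 21917 in the WT lists, so every count of marked genes below stands beside longer KO lists. The fragments stacked on each summit (the pileup) were recovered as whole numbers from the deposited values, and the background implied by the same values was 0.738, 0.465 and 0.827 fragments per 200 bp in KO libraries and 0.499, 0.584 and 0.498 in WT libraries. KO replicate 2 thus had the lowest background of the 6. Of 14 stem cell genes, 5, 3 and 3 were marked in KO libraries and 4, 4 and 5 in WT libraries. Lyl1, Runx1 and Tal1 were marked in all 6, and 7 genes, among them Cd34, Gata2, Mecom and Slamf1, in none. Ptprc, carried by blood cells generally, was marked in all 6. Of 4 genes each, 2, 0 and 0 B cell and 3, 0 and 2 myeloid genes were marked in KO libraries, against 0, 0 and 2 B cell and 1, 2 and 0 myeloid genes in WT libraries. Of 3 erythroid genes, 3 were marked in each KO library, against 2, 2 and 1 in the WT libraries. The T cell list was marked at Cd3d alone, in each library. Among 4 stroma and endothelium genes Pecam1 alone was marked, in each library, and of 3 genes of other organs 1 was, in WT replicate 3. The part of other cell types in the results was not tested.

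How often the ends of the zinc finger genes carried H3K27ac was compared first. A gene was called marked in a library when a peak touched the window within 1 kb of either gene end. In KO libraries 127, 112 and 125 of the 176 genes were marked, against 60, 74 and 66 in WT libraries. The groups did not overlap: the lowest KO library had 112 marked genes and the highest WT library 74. Nor did they overlap over the other protein-coding genes, with 39.4% marked in the lowest KO library and 29.8% in the highest WT library. The means were 121.3 ± 8.14 genes in KO and 66.7 ± 7.02 genes in WT (SD, n = 3 each), or 68.9% and 37.9% of the genes, a ratio of 1.82. The difference of 54.7 genes had p = 0.1 in a two-sided exact permutation test, the smallest p that 3 against 3 libraries allow. With no animal given for a library, such p-values measure the spread between these libraries.

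Part of this contrast runs through the whole genome. Of the 21707 other protein-coding genes, 41.8 ± 2.34% were marked in KO and 27.5 ± 2.01% in WT (SD, n = 3 each), a ratio of 1.52. The zinc finger genes exceeded those genes by 28.1, 24.2 and 29.1 percentage points in KO libraries and by 7.84, 12.3 and 11.2 points in WT libraries. The excess averaged 27.1 ± 2.58 points in KO and 10.4 ± 2.31 points in WT (SD, n = 3 each), and the difference of 16.7 points again had p = 0.1 in the two-sided exact permutation test. The 221 numbered Zfp genes on other chromosomes were marked at 53.2 ± 6.34% in KO and 35.3 ± 4.59% in WT, a ratio of 1.51. By chromosome, the ratio for the genes studied was 1.80 on chromosome 7, 1.97 on chromosome 13 and 1.76 on chromosome 17. The 3742 other protein-coding genes of the same chromosomes had a ratio of 1.49. When each list was limited to its 21917 best peaks, the length of the shortest, 61.7 ± 4.26% of the zinc finger genes were marked in KO and 36.0 ± 1.74% in WT (SD, n = 3 each). Under the same limit 37.0% of the other genes were marked in KO and 26.2% in WT.

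**Figure D1:**
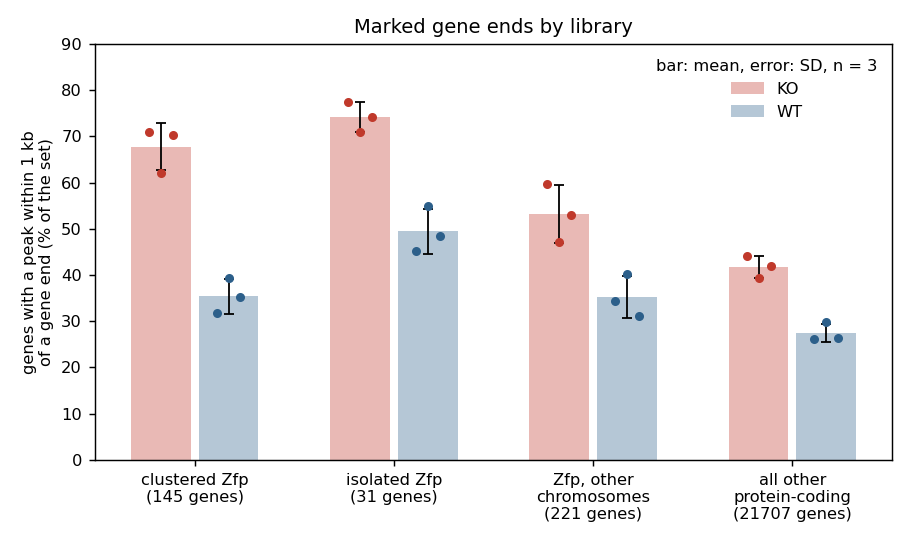
Share of genes with an H3K27ac peak within 1 kb of a gene end, as a percentage of each set, in KO and WT libraries; bars are means, error bars SD and points the 3 libraries of a group. In clustered Zfp genes the KO mean of 67.8% stands against 35.4% in WT, and in all other protein-coding genes 41.8% stands against 27.5%.

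Whether clustered genes differ from isolated ones was asked next. Clustered genes were marked at 67.8 ± 4.99% in KO and 35.4 ± 3.80% in WT, and isolated genes at 74.2 ± 3.23% in KO and 49.5 ± 4.93% in WT (SD, n = 3 each). The clustered share was below the isolated share in all 6 libraries, with differences of -6.38, -8.90 and -3.85 percentage points in KO and -13.4, -15.5 and -13.2 points in WT. The mean difference was -10.2 points, with p = 0.03125 in a two-sided exact sign-flip permutation test over the libraries, the smallest p that 6 libraries allow. After Benjamini-Hochberg adjustment over the 5 tests made here, this and the other p-values all became 0.1 (exact tests). The 6 libraries read the same genes, so this p speaks of libraries and not of other genes. It did not hold at every setting: with a q-value limit of 0.05 on the peaks the mean difference was -3.73 points with an exact p of 0.0625, and at -log10 q of at least 5 it was 1.74 points, the opposite sign, with an exact p of 0.5625.

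The clustered genes stood closer to the isolated ones in KO than in WT. The gap averaged -6.38 ± 2.53 points in KO and -14.1 ± 1.28 points in WT (SD, n = 3 each), and the difference of 7.68 points had p = 0.1 in the two-sided exact permutation test. It varied widely with the setting: 0.617 points on chromosome 7 alone (exact permutation p of 1), 24.1 on chromosome 13 (0.1) and 5.51 on chromosome 17 (0.6). It was 2.85 points with a window of 500 bp (0.4) and 3.46 with the summit in the window (0.2). At a q-value of at most 0.05 it had the opposite sign, at -1.56 points with an exact permutation p of 0.7. On the other chromosomes clustered Zfp genes were likewise below isolated ones, with differences of -10.5, -9.24 and -9.02 points in KO libraries and -4.36, -15.1 and -7.71 points in WT libraries. The limit of 200 kb parted Zfp629 from Zfp414. Zfp629 lay just inside, with peaks of 8 fragments in KO replicates 1 and 3 alone, and Zfp414 lay just outside, with peaks in all 6 libraries.

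The runs of 8 or more genes are described next, with no test of differences between runs. In the one with the most genes, 23 from Zfp712 to Zfp273 on chromosome 13 (chr13:67038594-67827000), 17, 15 and 16 genes were marked in KO libraries, against 6, 6 and 7 in WT libraries. Among the 18 genes from Zfp677 to Zfp946 on chromosome 17, the counts were 16, 13 and 14 in KO and 9, 11 and 8 in WT. The 12 genes from Zfp871 to Zfp101, further along chromosome 17, gave 11, 8 and 11 in KO and 4, 3 and 3 in WT. In these 3 runs the lowest KO library was above the highest WT library. On chromosome 7 the 15 genes from Zfp84 to Zfp146 gave 12, 9 and 12 in KO and 3, 7 and 6 in WT. The 8 genes from Zfp553 to Zfp629 gave 7 in each KO library and 5, 4 and 3 in WT, and the 8 from Zfp607b to Zfp850 gave 5, 7 and 6 in KO and 3, 3 and 1 in WT. The groups were apart in these runs as well. Such separation is not particular to the runs, since the other protein-coding genes had at least 39.4% marked in KO libraries and at most 29.8% in WT libraries.

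A further run on chromosome 7 had few marked gene ends. Of its 12 genes from Zfp180 to Zfp575 (chr7:24081877-24587840), 3, 2 and 3 were marked in KO libraries and 1, 0 and 1 in WT libraries. Zfp112, Zfp235, Zfp109, Zfp108, Zfp93, Zfp61, Zfp428 and Zfp575 had no peak at their gene ends in any library. Inside the gene body, Zfp235 held 1, 1 and 2 peaks in KO libraries and none in WT libraries, and Zfp109, Zfp108 and Zfp61 held peaks in 1 or 2 KO libraries and no WT library. The first gene of the run, Zfp180, had pileups of 12, 11 and 17 fragments in KO libraries, against 5 and 5 fragments in WT replicates 1 and 3 and no peak in WT replicate 2. Zfp94, near the middle of the run, was marked in KO libraries alone.

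**Figure D2:**
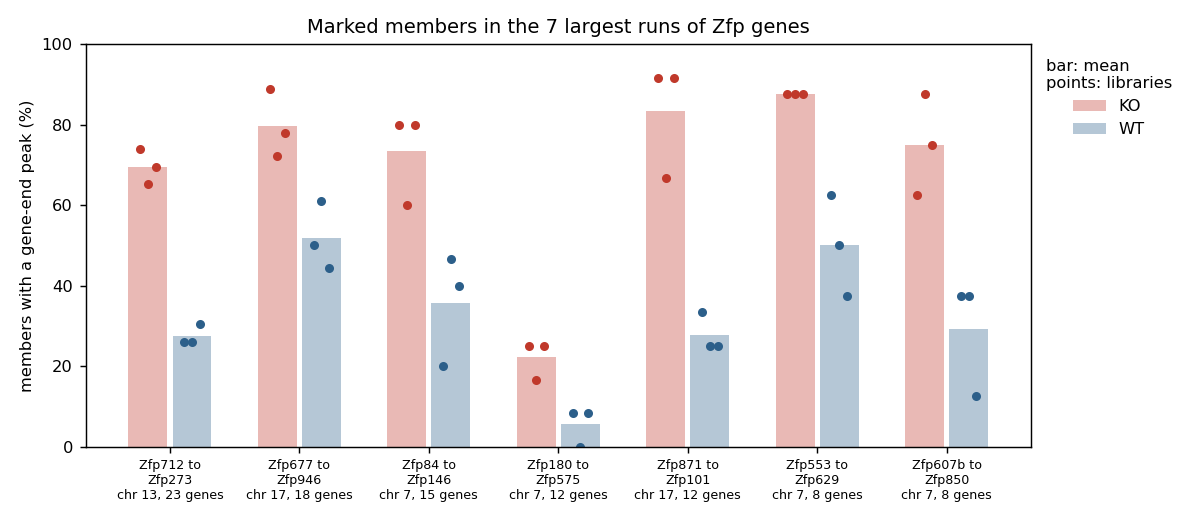
Percentage of genes marked in each run of 8 or more Zfp genes linked within 200 kb, in KO and WT libraries; bars are means and points libraries. The run from Zfp180 to Zfp575 has at most 3 of 12 genes marked in any library, while the run from Zfp553 to Zfp629 has 7 of 8 marked in every KO library.

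**Figure D3:**
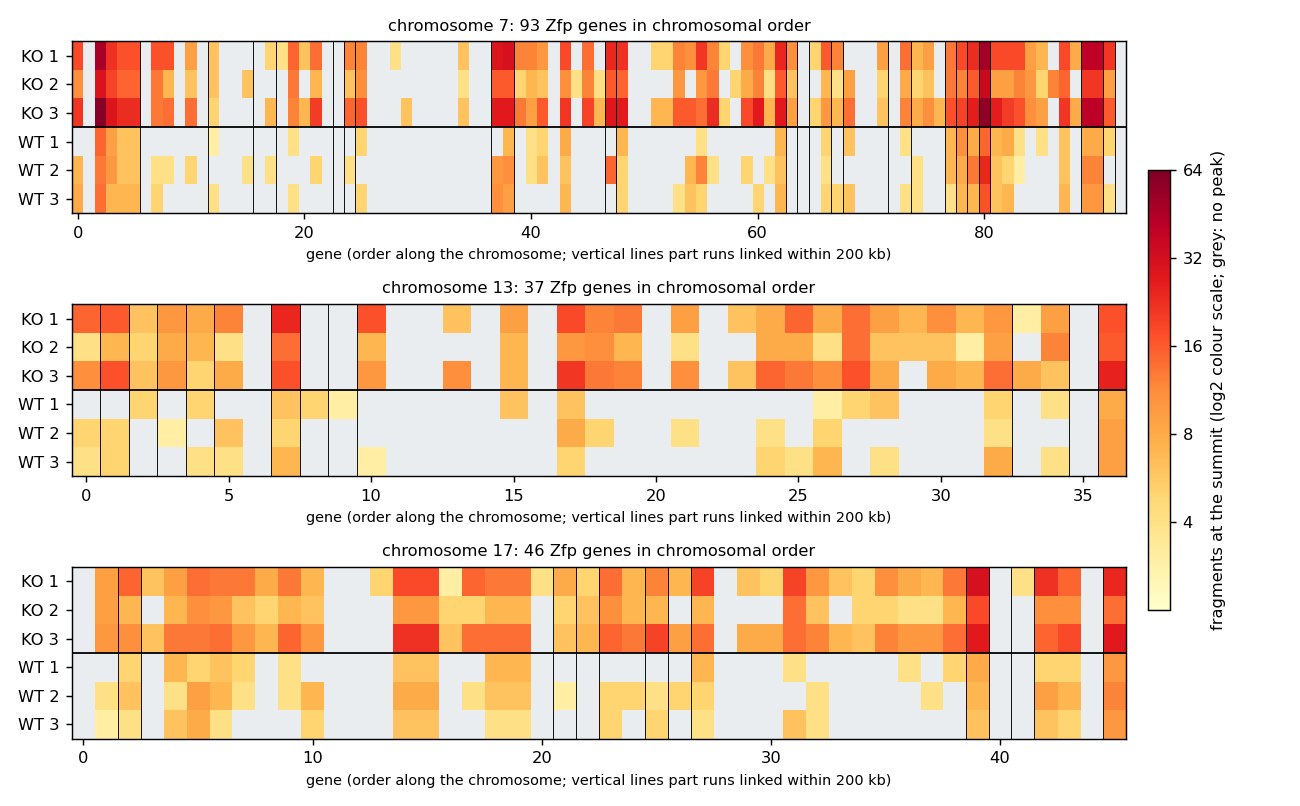
Fragments at the summit of the best gene-end peak (log2 colour scale; grey where there is no peak) for the Zfp genes of chromosomes 7, 13 and 17 in chromosomal order, with KO libraries above the line and WT libraries below it. KO rows hold fewer grey cells, with 127, 112 and 125 genes marked, against 60, 74 and 66 in WT rows.

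Gene by gene, 95 genes were marked in more KO than WT libraries, 40 in as many of each, and 2 in fewer. No matching shares of the other protein-coding genes are given here, and those genes were also marked more often in KO, at 41.8% against 27.5%. The 2 genes were Zfp369 and Zfp640, each with a gene-end peak in WT replicate 1 alone. Those 2 peaks had 5 fragments at Zfp369 and 3 at Zfp640. Inside its body Zfp369 held 1 peak in each KO library and in WT replicates 2 and 3. A peak in all 3 KO libraries and no WT library was found at 15 genes, or 8.52%, beside 4.07% of the other protein-coding genes. As a share of the genes marked in at least 1 library it was 10.9%, beside 8.07% elsewhere. No gene showed the reverse pattern, which 0.00921% of the other genes showed. At a q-value of at most 0.05 the KO-only genes numbered 41, or 23.3%, beside 12.3% of the other genes. The count depends on single libraries, with 28 genes when KO replicate 2 was left out and 30 when WT replicate 2 was left out.

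The 15 KO-only genes were low in fragments, with KO pileups of 3 to 19 and a median of 7. They comprised 13 clustered and 2 isolated genes, 7 on chromosome 7, 3 on chromosome 13 and 5 on chromosome 17. Absence from the WT lists is not absence of acetylation, since the lowest summit in any WT list had 3 fragments. The best peaks of the 3 KO libraries overlapped pairwise at 13 of the 15.

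Zfp780b led them, with 14, 12 and 19 fragments in the KO libraries. Its peaks spanned 819, 1016 and 895 bp, with summits 37 bp downstream, 130 bp upstream and 65 bp downstream of the start shown above, so all 3 lay on the printed promoter or just past it. Zfp747, within the run that ends at Zfp629, had 9, 10 and 11 fragments. Zfp719, on chromosome 7, had 9, 6 and 11 fragments. Zfp607b had 12, 5 and 13 fragments, with KO replicate 2 the lowest, and its window is shared with Map3k10, a kinase gene, so its peaks cannot be assigned to either gene.

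On chromosome 13, Zfp429 had 13, 7 and 12 fragments in KO libraries, and Zfp85 had 11, 6 and 8. Both lie in the run from Zfp712 to Zfp273, as does Zfp493, with 7, 3 and 7 fragments. KO replicate 2 was lowest at each of these 3 genes.

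On chromosome 17, Zfp955a had 11, 5 and 12 fragments in the KO libraries, Zfp948 had 8, 5 and 7, and Zfp563 had 5, 5 and 6. Zfp947 was the weakest of the KO-only genes by its rank, at 3, 5 and 6 fragments. Zfp955a shares all 300 bases of its promoter with Zfp955b, which had 8, 4 and 10 fragments in KO libraries and a peak of 4 fragments in WT replicate 1. The sources used here do not say how reads that match both copies were placed, so values at these genes are uncertain.

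The 2 isolated KO-only genes were Zfp507, with 11, 6 and 9 fragments, and Zfp40, with 5, 6 and 7. The remaining KO-only genes on chromosome 7 were Zfp975, with 9, 5 and 6 fragments, and Zfp94, with 6, 4 and 6. WT peaks inside the gene body, away from the gene ends, were present at Zfp955a and Zfp40 and at no other KO-only gene.

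**Figure D4:**
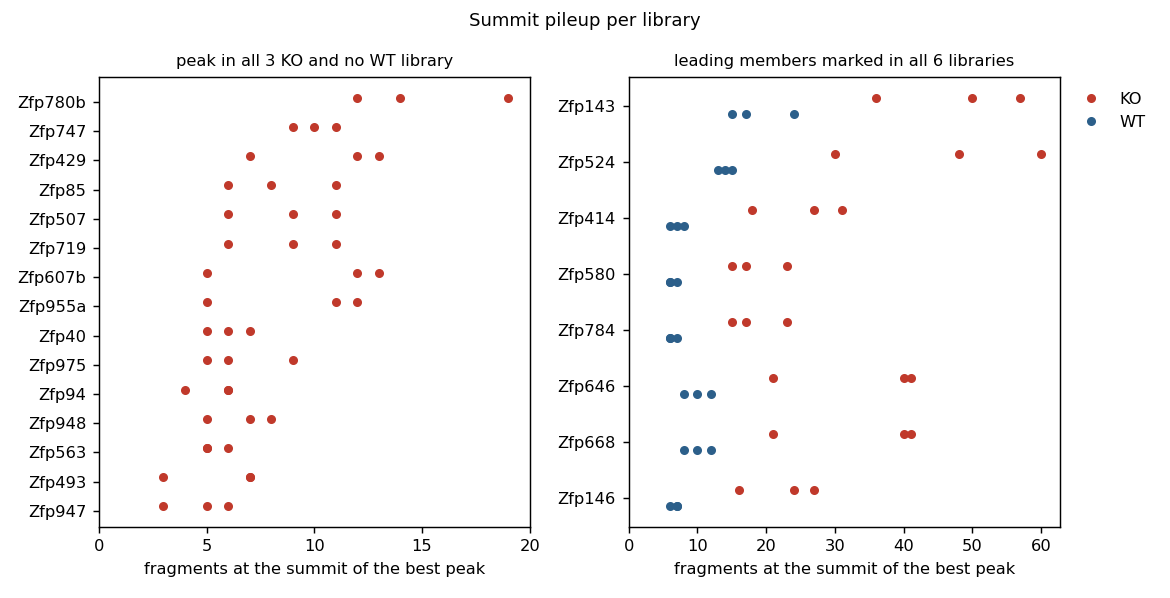
Fragments at the summit of the best gene-end peak in each library, for the 15 genes marked in all 3 KO and no WT library (left) and the 8 leading genes marked in all 6 (right), with KO and WT points on separate lines. KO points on the left lie between 3 and 19 fragments, and on the right every KO point of a gene lies above its WT points.

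A peak in all 6 libraries was found at 37 genes, or 21.0%, beside 16.9% of the other genes. At a q-value of at most 0.05 there were 8, or 4.55%, beside 4.37% of the other genes. They comprised 28 clustered and 9 isolated genes, and 15 of the 37 share their window with another gene. The highest were Zfp143 and Zfp524. Zfp143, whose promoter is shown above, had pileups of 50, 36 and 57 fragments in KO libraries, against 15, 24 and 17 in WT libraries. Zfp524 had 48, 30 and 60 fragments in KO libraries, against 15, 13 and 14 in WT libraries, and its window overlaps those of Fiz1 and Zfp865. At both genes the lowest KO library was above the highest WT library.

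Zfp414 had 31, 18 and 27 fragments in KO libraries, against 8, 7 and 6 in WT libraries. Zfp146, in the run on chromosome 7 that it closes, had 24, 16 and 27 fragments in KO libraries, against 7, 6 and 7 in WT libraries. Zfp580 and Zfp784 stand back to back 73 bp apart and share 1 peak, which had 17, 15 and 23 fragments in KO libraries, against 6, 6 and 7 in WT libraries. Zfp646 and Zfp668, 78 bp apart, likewise share 1 peak, with 40, 21 and 41 fragments in KO libraries, against 8, 12 and 10 in WT libraries. In these cases too the groups did not overlap.

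Over the 37 genes marked everywhere, the median pileup was 18, 11 and 21 fragments in KO libraries, against 7, 7 and 7 in WT libraries. At 31 of the 37 genes every KO pileup was above every WT pileup, beside 93.3% of the other genes marked in all 6 libraries, and at none was the reverse seen. KO replicate 2 alone, the library with the lowest background, was above every WT library at 31 of the 37, beside 93.4% of those other genes. Pileups are not scaled for depth. The widest peak was wider in every KO than in every WT library at 18 of the 37 genes, beside 63.8% of those other genes, and the reverse was seen at none, beside 0.0272%. No test was made of these shares.

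The widest gene-end peak at each marked zinc finger gene was taken. Its median width over the genes was 756, 573.5 and 873 bp in KO libraries, against 317.5, 362 and 371 bp in WT libraries. The means of these medians were 734 ± 151 bp in KO and 350 ± 28.6 bp in WT (SD, n = 3 each), and the difference of 384 bp had p = 0.1 in the two-sided exact permutation test. Among peaks of -log10 q of at least 5 the sign turned, to -77.8 bp, with an exact permutation p of 0.8. Median widths of all peaks were 306, 311 and 391 bp in the KO lists and 234, 221 and 236 bp in the WT lists. These count every peak and not the widest at a gene, so they are no like measure for the widths above.

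Nearly all of the peaks were at the start of the gene and not at its far end. Of the marked genes with a known strand, 98.2%, 99.0% and 99.1% in KO libraries and 92.5%, 95.4% and 100% in WT libraries had a peak at the start. The summit of the best peak was within 500 bp of the start at 86.8%, 80.2% and 91.2% of them in KO libraries and at 75.5%, 76.9% and 81.0% in WT libraries. Peaks also lay inside gene bodies outside the windows, at 54, 41 and 41 genes in KO libraries and at 24, 23 and 27 in WT libraries. No matching share of the other protein-coding genes is given here, and the KO lists held more peaks, so nothing is read from this contrast.

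**Figure D5:**
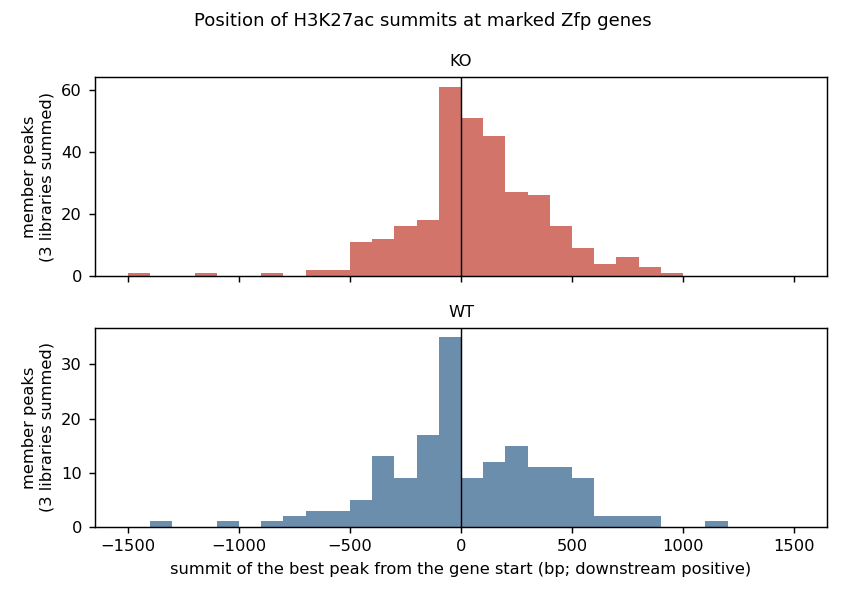
Distance of the best peak's summit from the nearest RefSeq start of its Zfp gene, in bp with downstream positive, summed over the 3 KO libraries (top) and the 3 WT libraries (bottom) in bins of 100 bp. Summits crowd around the start in both groups; 15 of 328 KO peaks and 12 of 176 WT peaks lie beyond 1500 bp and are not drawn.

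No gene-end peak in any library was found at 39 genes, or 22.2%, beside 49.6% of the other protein-coding genes. They comprised 34 clustered and 5 isolated genes. The first by coordinate on each chromosome were Zfp579 and Zfp787 on chromosome 7, Zfp934 and Zfp708 on chromosome 13, and Zfp960 and Zfp229 on chromosome 17. An unmarked end did not mean a bare gene: inside its body Zfp787 held 4, 3 and 5 peaks in KO libraries and 2, 1 and 1 in WT libraries. Zfp708 held 1, 2 and 1 inside peaks in KO libraries and none in WT libraries. Zfp57, which encodes the KRAB protein that keeps methylation at imprinted loci, was unmarked at its ends in all 6 libraries. Zfp57 was chosen after its values were seen.

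Many promoters of the clustered genes shared a word that is rare elsewhere. RefSeq promoter entries were matched by gene for 157 of the 176 genes, and the Zfp143 word, searched on both strands, was found in 43 of them, or 27.4%. It was found in 511 of 17491 promoters of all protein-coding genes, or 2.92%. All 43 genes were clustered, 43 of 130 with an entry (33.1%), and none of 27 isolated genes held it. It was concentrated in a few runs: in 19 of 20 promoters of the run from Zfp712 to Zfp273, in 10 of 14 from Zfp84 to Zfp146, in 6 of 10 from Zfp180 to Zfp575, and in none of the 17 from Zfp677 to Zfp946 or the 11 from Zfp871 to Zfp101. Copies of 1 ancestral promoter are not independent occurrences.

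In the chromosome 13 run all 19 matches read against the direction of the gene, centred at -172.5 to -10.5 bases from the start (upstream negative), with a median of -46.5. The commonest of 5 forms, ACTACATTTCCC, accounted for 11 of the 19. Stretches of 42 bases around the word are given for 7 of these genes, written along the strand that reads the word. They set like sequences beside unlike marking of the gene ends. Zfp429 (chr13:67399812-67399853) and Zfp85 (chr13:67755192-67755233) were marked in KO libraries alone, Zfp953 (chr13:67360621-67360662) and Zfp273 (chr13:67813734-67813775) in all 6, and Zfp708 (chr13:67081571-67081612) in none. Zfp874a (chr13:67451631-67451672) and Zfp874b (chr13:67484262-67484303) are a close pair with different marking at their gene ends. Capitals mark the word. The minus strand of GRCm38.p6 is shown for Zfp273 and the plus strand for the others.
Zfp429: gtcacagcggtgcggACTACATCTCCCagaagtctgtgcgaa
Zfp85: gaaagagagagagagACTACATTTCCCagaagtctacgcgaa
Zfp953: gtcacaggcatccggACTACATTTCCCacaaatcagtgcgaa
Zfp273: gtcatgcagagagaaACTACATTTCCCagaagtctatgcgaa
Zfp708: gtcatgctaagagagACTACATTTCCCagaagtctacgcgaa
Zfp874a: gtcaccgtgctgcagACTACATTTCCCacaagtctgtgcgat
Zfp874b: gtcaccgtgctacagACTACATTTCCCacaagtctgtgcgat
Marked and unmarked genes of the run thus both carry the word. For the unmarked Zfp708 and Zfp874b, though, the stretch lies inside the gene, outside the 1 kb windows that set the marking. The same holds for the word at the unmarked Zfp759, Zfp458 and Zfp595. Their unmarked ends therefore do not describe the sequence around the word. Zfp708, Zfp759, Zfp458 and Zfp595 held inside peaks in each KO library and in no WT library. Zfp953 had 18, 10 and 21 fragments in KO libraries, against 6, 8 and 5 in WT libraries. Zfp273 had 10, 9 and 14 in KO libraries, against 5, 4 and 8 in WT libraries. Zfp874a had 9, 4 and 11 in KO libraries and 4 in WT replicate 2, with no peak in the other WT libraries. Zfp874b was unmarked at its ends in all 6, but inside its body it held 1, 1 and 1 peaks in KO libraries and 1, 1 and 2 in WT libraries. These pairs and stretches were chosen after their values were seen.

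Marking was then set beside the word, with no test. Genes with it were marked at 65.1 ± 12.1% in KO and 26.4 ± 2.69% in WT, and genes without it at 71.3 ± 1.83% in KO and 41.5 ± 4.50% in WT (SD, n = 3 each). It was in 5 of 31 promoters of the genes marked in all 6 libraries, in 4 of 13 of the KO-only genes and in 11 of 34 of the unmarked genes. At several of these unmarked genes, among them Zfp708, Zfp109, Zfp93 and Zfp790, the word lies inside the gene, outside the windows. Their marking was thus read at another place than the word. Among other words, searched on both strands, CCGGAAGT (ETS) was in 11.5% of the promoters beside 5.69% of all, GCGCAT followed by GCGC (NRF1) in 4.46% beside 1.47%, AAGATGGCG (YY1) in 1.27% beside 2.14%, TGACGTCA (CREB) in 5.73% beside 2.54%, and CCAAT (NFY) in 49.7% beside 42.3%.

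CpG content is given as a description. The median number of CpG dinucleotides in the 300 bases was 18 in genes marked in all 6 libraries, 10 in KO-only genes and 9 in unmarked genes, against 15 over all protein-coding genes. The medians of KO-only and unmarked genes lay close together, with ranges of 6 to 31 and 1 to 27. Another 79 genes with an entry had other patterns of marking and are left out of these medians. Some promoters of unmarked genes, such as that of Zfp109, lie outside the windows that set the marking. Isolated genes had a median of 19 and clustered genes 11.5. The run from Zfp180 to Zfp575 had a median of 11, and the run from Zfp712 to Zfp273 one of 8.5.

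Near-identical copies limit what can be said of single genes. A stretch of over 100 bases was shared between promoters at 9 of the 157 genes. Zfp758 and Zfp943 shared 248 bases, Zfp942 and Zfp944 shared 207, and Zfp119a and Zfp959 shared 114. Zfp944 and Zfp758 start 2 bp apart in opposite directions and share 1 window, where the KO libraries had 13, 7 and 14 fragments and the WT libraries 7, 6 and 4. Zfp942 shares its window in the same way with Zfp943, 56 bp away, and had 18, 10 and 22 fragments in KO libraries, against 6, 8 and 6 in WT libraries. Among the 13 KO-only genes with a promoter entry, Zfp955a alone had a shared stretch over 100 bases. The KO-only genes Zfp40 and Zfp493 had no entry and were not compared.

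The partners through which KRAB zinc finger proteins act were then examined. Of 24 genes of the KAP1 pathway, 20, 21 and 21 were marked in KO libraries and 16, 15 and 15 in WT libraries. The other protein-coding genes, given above, had 41.8% marked in KO and 27.5% in WT. None of the 24 was marked in KO libraries alone, beside 4.07% of those other genes, and nothing is read from so short a list. Marked in all 6 were 9 of the 24, beside 16.9% of the other genes. They were Trim28 itself, Atf7ip, a partner of the H3K9 methyltransferase Setdb1, and Cbx3 and Cbx5, which bind methylated H3K9. The rest were the histone chaperone gene Daxx, Morc2a, Morc3, Pphln1 and Smarcad1. Chd3 and Dnmt1 were marked in none. Trim28 had 19, 9 and 20 fragments in KO libraries, against 5, 7 and 5 in WT libraries, in a window shared with Chmp2a and Gm31649. Atf7ip, Cbx3, Cbx5, Daxx, Pphln1 and Smarcad1 also share a window with another gene, so peaks there cannot be assigned to 1 gene.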

How the data were processed

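The 6 deposited lists of H3K27ac peaks were used, 1 per library, 3 KO and 3 WT. Trimmomatic, BWA, MACS2, deepTools, HOMER and ChIPseeker are named in the submitters' processing notes, with GRCm38 and mm10 as builds. The sources used here give neither their versions nor any control library. Each deposited peak carries a fold enrichment (a ratio), -log10 p and -log10 q values and a score made by the authors' caller. These are the authors' own values and were used to rank or filter peaks within a list and to recover the pileup and the background. No file gives read totals, so depth is known only as the pileup. It was solved from fold and -log10 p, and was a whole number within 0.002 for 100% of peaks with -log10 p under 15.

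Genes came from RefSeq (GRCm38.p6), as did promoters, 250 bases before to 50 after a start. A gene was marked when a peak touched the 1 kb window around either end. Two-sided exact permutation tests ran over the 20 assignments of 6 libraries to groups, and sign-flip tests over 64 patterns. Python 3.11.15, numpy 2.4.6, pandas 2.3.3 and scipy 1.17.1 were used. The marking and the pileup solution were checked on simulated peaks.

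The genes, gene lists and tests were chosen with earlier results of these data known. Genes named were those marked in all 3 KO and no WT library (up to 15) and in all 6 (up to 8), by their weakest library's percentile of -log10 p, the first 2 unmarked per chromosome, and those next to the 200 kb limit. Other genes were named after their values were seen, among them the unmarked genes of the Zfp180 run, the near-identical pairs and Zfp369, Zfp640, Zfp180, Zfp953, Zfp273 and Zfp874a. Alternatives changed the window, the distance that makes a run, the peak filter and the libraries.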

Additional observations from a re-analysis of the deposited data

How the results depend on the processing

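The excess of marked genes in KO kept its direction in every alternative run, with differences of 44 to 81 genes, and 51.3 to 59.3 when 1 library was left out (exact permutation p of 0.1 to 0.25, or 0.2 with 1 library left out, the smallest possible). The excess over other genes ranged from 9.46 to 21.6 points, and from 15.4 to 18.2 with 1 library left out.

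The clustered minus isolated difference was less firm. It was -6.60 points with the same number of best peaks in each library (exact p 0.09375), -6.58 with the window at the start alone (0.125), -4.02 with both together (0.25, chosen after seeing the data), -7.31 with genes linked within 500 kb (0.0625), -12.9 on chromosome 13 (0.125) and -1.25 on chromosome 17 (0.78125). It was -3.73 at a q-value of at most 0.05 (0.0625) and 1.74 at -log10 q of at least 5 (0.5625), and -11.5 to -9.16 with 1 library left out (0.0625, the smallest possible). Its KO minus WT value ran from -1.56 at a q-value of at most 0.05 (exact p 0.7) through 0.617 on chromosome 7 (1) to 24.1 on chromosome 13 (0.1), and was 6.42 to 8.94 with 1 library left out.

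KO-only genes numbered 41 at a q-value of at most 0.05, 11 with equal lists (10 of them among the 15, beside 2.91% of all genes) and 16 to 30 with 1 library left out. Genes marked in all 6 numbered 8 at a q-value of at most 0.05, 1 at -log10 q of at least 5, 22 without genes that share a window, and 37 to 50 with 1 library left out. The width difference was -77.8 bp at -log10 q of at least 5, and 315 to 464 bp with 1 library left out. The causes were not tested.

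The labels do not say whether libraries of the same replicate number were paired. On the measure used to check this, same-numbered KO and WT libraries correlated at 0.00522, -0.00827 and -0.00243 over 21883 genes. Differently numbered ones correlated at -0.0113 to 0.0137. The same-numbered values lay within that range, which cannot decide whether the libraries were prepared in pairs. These are not correlations of the marking itself, since 3675 of the other genes were marked in all 6 libraries and 10760 in none. With the replicate block the differences were unchanged and the exact p became 0.25, the smallest that 3 pairs allow. WT summits of 3 fragments set the limit of detection.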
